A study of Mus musculus with 9 samples.

Results

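The imprinted growth genes described here are H19, Meg3, Cdkn1c, Grb10, Dlk1, Peg3, Plagl1, Mest, Ndn and Gnas, 10 genes taken by symbol from the 43644 genes of the deposited table. The question was whether a regenerated skull suture takes up an early growth program, of which these genes are a part. In the regenerated suture none of the 10 was called higher or lower than in wild type, as was none of all genes tested (0.0%). Of the 10, 8 had a log2 difference below 0, and the median was -0.73 beside -0.18 for all genes tested. Of 44 other imprinted genes tested, 31 lay below 0 and 13 above. In unoperated Twist1+/- suture 6 of the 10 were lower than in wild type and Dlk1 was higher, where 14.6% of all genes tested were lower and 20.5% higher. In operated over unoperated Twist1+/- suture 4 of the 10 were higher and 0 lower, beside 11.8% and 24.8% of all genes tested. These 4 were among the 6 low in unoperated suture, and both comparisons use the same unoperated libraries. All 10 members passed the filter on low values, as did 29107 genes in all. A filter 10 times stricter kept 11449 genes, without Dlk1 and Ndn, and there most called genes moved as the members did. In unoperated Twist1+/- suture 910 of them were higher and 3985 lower than in wild type. In operated over unoperated suture 2780 were higher and 872 lower.

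RNA was sequenced from the coronal suture, the joint of the frontal with the parietal bones, of C57BL/6 mice at 7 months of age, in 9 libraries. WT was wild type with no treatment. MUT was Twist1+/- with no surgery, and REG was Twist1+/- with suture regeneration surgery at 1 month, each group with 3 libraries. Twist1 encodes a transcription factor of skull mesenchyme, and loss of a copy is a known cause of early fusion of this suture. MUT and REG share the genotype, no group was sham operated, and the labels do not say what the surgery placed in the skull or how the Twist1 allele was made. REG vs MUT therefore compares surgery within a genotype, while REG vs WT differs in genotype and surgery together. Whether the 3 libraries of a group are 3 animals is not stated, so the p-values rest on the spread among libraries, which may be technical.

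An imprinted gene is transcribed mainly from the copy inherited from the mother or mainly from the copy inherited from the father. Many paternally expressed members promote growth and many maternally expressed ones restrain it, and several are high in the fetus and placenta and are switched down together in the weeks after birth. In the skeleton the best known member is Gnas, whose main protein couples the parathyroid hormone receptor to cyclic AMP. The values below are summed over both alleles and carry no information on parental origin.

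Promoter sequences are shown for the 3 members with a promoter entry that were called in both comparisons with MUT (Meg3, Peg3 and Grb10) and for Dlk1, the member that moved the other way. Each is the 250 bases before a RefSeq gene start (GRCm38.p6), printed 5′ to 3′ on the gene's strand. Capitals mark CG dinucleotides, the bases that carry DNA methylation at imprinted promoters. RefSeq entries were found for 8 of the 10 members.
Meg3, chr12:109540746-109540995, + strand: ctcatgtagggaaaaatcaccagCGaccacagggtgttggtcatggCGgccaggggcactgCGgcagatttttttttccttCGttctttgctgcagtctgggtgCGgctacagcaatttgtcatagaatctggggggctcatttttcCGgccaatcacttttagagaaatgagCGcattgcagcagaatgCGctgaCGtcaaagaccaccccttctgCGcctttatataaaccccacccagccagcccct
Peg3, chr7:6730420-6730669, - strand: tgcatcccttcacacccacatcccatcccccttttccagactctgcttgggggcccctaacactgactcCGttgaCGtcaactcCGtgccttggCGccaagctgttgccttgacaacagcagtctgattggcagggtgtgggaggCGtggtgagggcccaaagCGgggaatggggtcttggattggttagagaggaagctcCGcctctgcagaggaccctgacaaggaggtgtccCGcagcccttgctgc
Grb10, chr11:12037421-12037670, - strand: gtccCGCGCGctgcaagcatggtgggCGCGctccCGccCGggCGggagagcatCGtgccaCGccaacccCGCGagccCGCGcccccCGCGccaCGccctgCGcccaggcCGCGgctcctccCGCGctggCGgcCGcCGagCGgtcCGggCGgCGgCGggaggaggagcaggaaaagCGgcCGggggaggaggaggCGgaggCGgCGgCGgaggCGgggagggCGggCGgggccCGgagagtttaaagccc
Dlk1, chr12:109452573-109452822, + strand: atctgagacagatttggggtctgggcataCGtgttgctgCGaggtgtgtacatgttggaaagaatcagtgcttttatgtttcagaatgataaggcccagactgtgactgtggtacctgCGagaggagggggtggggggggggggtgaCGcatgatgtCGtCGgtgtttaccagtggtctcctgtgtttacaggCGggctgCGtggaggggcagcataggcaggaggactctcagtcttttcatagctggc

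The 4 windows differed in base composition. Grb10 held 40 CG, Meg3 10, and Peg3 and Dlk1 8 each, beside a median of 6 over 32851 RefSeq promoters of the same length. None of these 4 windows held the E-box CANNTG, the sequence bound by Twist1 and its partners, which was present on either strand in 66.2% of all promoters. Among members not shown, the Plagl1 window held 2 E-boxes, the Mest windows 1 to 2, the Gnas windows 0 to 2 and the Ndn window 0. RefSeq lists another start for Meg3 and for Grb10, and the windows before those, chr12:109545148-109545397 and chr11:12027972-12028221, held 1 E-box each. The windows shown are those nearest the GENCODE gene start, 5 and 1263 bases from it against 4397 and 10712, but the first 30 bases after those 2 shown starts were in no GENCODE transcript of the gene. Searched on both strands, GGGGCCCC, known from Plagl1 binding sites, occurred in the Peg3 window and in 0.889% of all promoters. It is shown with its flanks, in capitals.
Peg3 site, chr7:6730605-6730628, - strand: tctgcttgGGGGCCCCtaacactg
These matches describe letters only, and binding and methylation were not measured.

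The libraries differed with their group in ways that touch every result with MUT. Twist1 itself was 16.2, 23.3 and 23.1 in the WT libraries, 0.987, 8.08 and 0.548 in the MUT libraries and 3.76, 9.19 and 12.2 in the REG libraries. Here and below a value is the deposited gene count scaled to a common upper quartile, with replicates 1, 2 and 3 in order. Twist1 was lower in MUT than in WT (log2 -3.26 ± 0.76 SE, limma adjusted p = 0.0109), and it was not called in REG vs MUT (1.86) or REG vs WT (-1.40). WT libraries had 16356391 to 20019712 estimated reads, MUT libraries 2945636 to 10894209 and REG libraries 18276494 to 39377876. Background, estimated from receptor genes of sensory neurons, was 8.12% to 23.6% of reads in MUT and 0.524% to 0.912% in the other groups, and reads on mitochondrial genes were 2.01% to 4.78% against 9.70% to 15.5%. Summed over 10 markers, suture mesenchyme genes took 471 to 998 reads per 1000000 (RPM) in MUT, 11160 to 20660 in WT and 10880 to 13920 in REG, with none of the markers at 0. Neuron markers took 295 to 444 RPM in MUT and 39.0 to 54.7 in WT, keratinocyte markers 327 to 858 and 20.5 to 31.3, and blood and marrow markers 4383 to 10480 and 724 to 2104. Of these 30 markers Ivl was at 0 in a WT library and Krt14 in a MUT library. As deposited, 8 neuron, 8 keratinocyte and 7 blood and marrow markers had a log2 difference above 0 in MUT vs WT, and 2, 2 and 3 below. Their medians were 1.59, 1.02 and 0.40, beside 0.18 for all genes tested. Within REG, replicates 1 and 2 stood apart from replicate 3, with muscle marker sums of 730 and 999 RPM against 150.0, and Myog at 0 in a REG library. Replicate 3 of REG was the nearest of the REG libraries to the WT mean in 6 of the 10 members, and the library name of MUT replicate 2 does not give its group. The part of background, depth and cell makeup in the differences below was not tested except where a value is given, and in bulk RNA fewer cells of a type and less RNA per cell cannot be told apart.

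**Figure D1:**
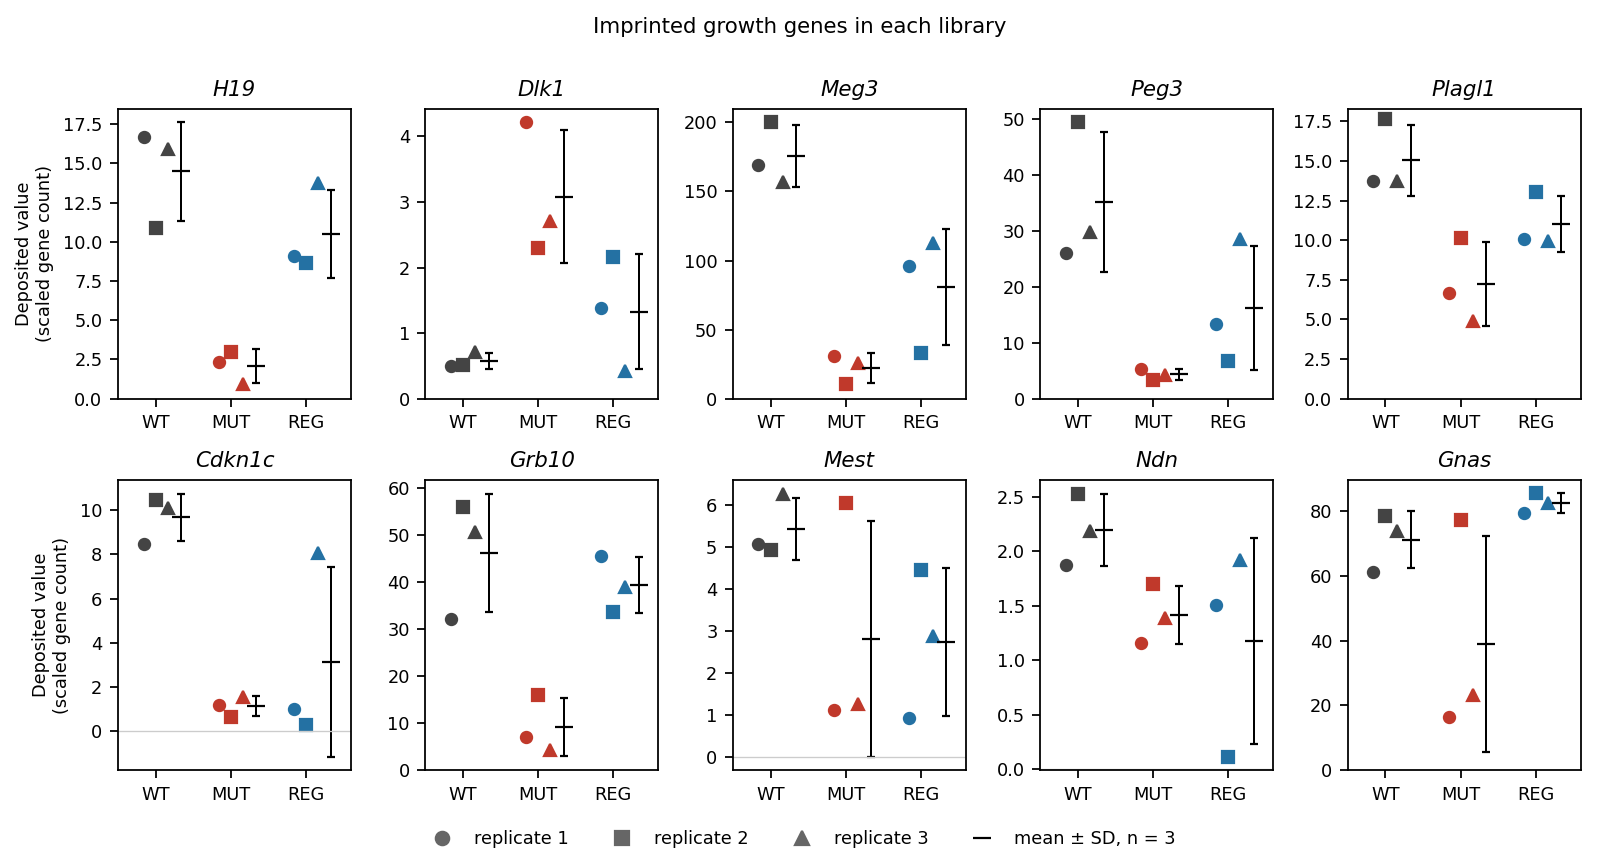
Deposited values (scaled gene counts, linear axes) of the 10 imprinted growth genes in each library by group, with the mean and SD of 3 libraries beside the points. H19, Meg3, Peg3, Cdkn1c and Grb10 lie lower in every MUT library than in every WT library, Dlk1 lies higher, and for Cdkn1c REG replicates 1 and 2 lie with MUT while replicate 3 lies near WT.

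Scaled to reads per kb of exon per 1000000 reads, the members covered a wide range in wild-type suture. Meg3 was the most abundant at 19.8 ± 1.51 (mean ± SD, n = 3), above the range of every other member. Gnas (13 ± 0.987), H19 (12.2 ± 3.34), Grb10 (10.3 ± 2.33) and Cdkn1c (9.67 ± 0.692) came next, and each overlapped its neighbour in this order. Peg3 (5.32 ± 1.51) and Plagl1 (3.91 ± 0.317) also overlapped each other. Mest (2.81 ± 0.480), Ndn (1.20 ± 0.104) and Dlk1 (0.197 ± 0.0486) followed without overlap. The adult wild-type suture held the maternally expressed RNAs Meg3 and H19 at levels per length far above that of Dlk1, which shares a cluster with Meg3.

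In MUT vs WT, 7 of the 10 members were called at a Benjamini-Hochberg adjusted p under 0.05 in limma, where 35.1% of all genes tested were called. Dlk1 was the 1 higher member (20.5% of genes tested were higher), and H19, Meg3, Cdkn1c, Grb10, Peg3 and Plagl1 were the 6 lower ones (14.6% lower). The groups did not overlap for 1 member higher and 7 lower, beside 32.6% and 25.9% of all genes tested (58.5% in either direction). The members' median log2 difference was -1.84, and that of all genes tested was 0.18. In REG vs MUT, 4 members rose (H19, Meg3, Grb10 and Peg3) and 0 fell, beside 11.8% and 24.8% of all genes tested and 36.6% in either direction. All REG libraries lay above all MUT libraries for 5 members and below them for 1, beside 14.0% and 28.5% of all genes tested (42.5% in either direction). The median was 1.02 for the members and -0.36 for all genes tested. Both comparisons use the same MUT libraries. In REG vs WT limma called 0 of 10 members and 0 of 29107 genes (0.0%), with 3 members and 2755 genes at an unadjusted p under 0.05. For 1 member (Gnas) every REG library lay above WT and for 4 (Meg3, Cdkn1c, Plagl1 and Mest) every one lay below, beside 4.03% and 12.1% of all genes tested (16.1% in either direction). The authors' deposited table also has 0 genes in this comparison, with a smallest FDR of 0.418.

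The split of all calls depended on the scaling and on the filter. As deposited, 5964 genes were higher and 4261 lower in MUT vs WT; the split was 4101 and 5268 with trimmed-mean scaling, 2557 and 2489 with quantile scaling, 10642 and 837 with total-read scaling, and 3275 and 813 with background subtraction. For REG vs MUT it was 3432 higher and 7221 lower as deposited, 6244 and 4628 with trimmed-mean scaling, 1860 and 2344 with quantile scaling, and 942 and 10440 with total-read scaling. The median of all genes tested moved to 1.08 in MUT vs WT and to -1.02 in REG vs MUT with total-read scaling. The members' median in MUT vs WT was then -0.70. In MUT vs WT 5 members were called under total-read scaling, and 3 after background subtraction (H19, Peg3 and Dlk1).

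**Figure D2:**
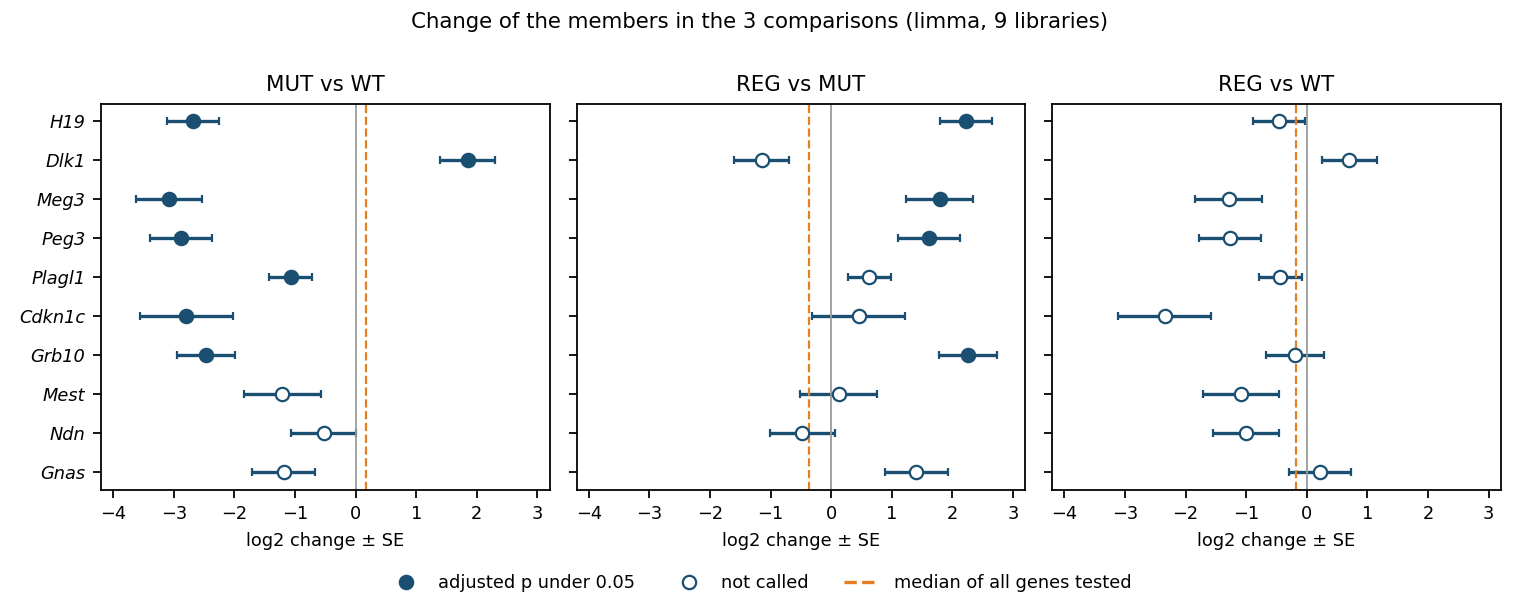
Log2 change of each member with its SE in the 3 comparisons from 1 limma fit of 9 libraries, with filled points called at an adjusted p under 0.05 and a dashed line at the median of all genes tested. Members lie to the left in MUT vs WT except Dlk1, 4 filled points lie to the right in REG vs MUT, and no point is filled in REG vs WT.

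H19 makes a maternally expressed long noncoding RNA that restrains fetal growth and shares its enhancers with Igf2. It lies at chr7:142575529-142578143 on the - strand of mm10 (ENSMUSG00000000031.16, lincRNA, 2.46 kb of exon). Its values were 16.6, 10.9 and 15.9 in the WT libraries, 2.34, 2.99 and 0.919 in the MUT libraries and 9.07, 8.66 and 13.7 in the REG libraries. All MUT libraries were below all others, and REG overlapped WT. H19 was 6.44-fold lower in MUT than in WT (log2 -2.69 ± 0.43 SE, limma adjusted p = 0.00256) and rose 4.69-fold in REG over MUT (2.23 ± 0.43, limma adjusted p = 0.00496). Set against WT, the REG difference was -0.46 (limma adjusted p = 0.728). The MUT values rest on 29 to 142 estimated reads, of which 16.2% to 78.0% are expected background. After background subtraction H19 was still called lower in MUT (-2.18, limma adjusted p = 0.0401), while its rise in REG vs MUT was 2.07 and was no longer called (limma adjusted p = 0.0509).

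Igf2, the paternally expressed growth factor gene beside H19, had values of 8.46, 9.79 and 13.2 in the WT libraries, 4.14, 6.99 and 4.83 in the MUT libraries and 9.40, 6.69 and 13.1 in the REG libraries. It was called in no comparison, with limma adjusted p-values of 0.0777, 0.120 and 0.919 for MUT vs WT, for REG vs MUT and for the difference of REG from WT. Igf2r, whose receptor takes up IGF2 for breakdown, was 39.9, 54.7 and 53.9 in the WT libraries, 10.9, 10.2 and 9.61 in the MUT libraries and 54.5, 26.4 and 52.6 in the REG libraries. It was lower in MUT than in WT (log2 -2.22, limma adjusted p = 0.00296) and rose in REG over MUT (2.01, limma adjusted p = 0.0043).

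Meg3 makes a maternally expressed long noncoding RNA from the cluster that also holds Dlk1. It spans chr12:109541001-109571726 on the + strand (ENSMUSG00000021268.17, lincRNA, 18.1 kb of exon). Values were 169, 200.2 and 157 in the WT libraries, 31.2, 10.3 and 25.9 in the MUT libraries and 96.3, 33.2 and 113 in the REG libraries, so that all 3 groups were apart. Meg3 was 8.45-fold lower in MUT than in WT (log2 -3.08 ± 0.55 SE, limma adjusted p = 0.0038) and rose 3.46-fold in REG over MUT (1.79 ± 0.55, limma adjusted p = 0.029). REG libraries all lay below WT, at a log2 difference of -1.29 that was not called (limma adjusted p = 0.515). Background was 19.4% to 33.7% of the Meg3 reads in MUT, and after its subtraction neither difference was called (-1.98 with limma adjusted p = 0.114 and 1.04 with 0.395). Quantile scaling gave -1.80 in MUT vs WT (limma adjusted p = 0.0858). The REG vs MUT difference was not called with total-read scaling (0.91, limma adjusted p = 0.285) or quantile scaling (0.73, limma adjusted p = 0.485). Nor was it called without MUT replicate 2 (1.31) or 3 (1.96), or without REG replicate 1 (1.57) or 3 (1.46).

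The same cluster holds other imprinted genes. Rian, a noncoding RNA downstream of Meg3 on the same strand, was 14.8, 14.5 and 18.2 in the WT libraries, 13.7, 19.4 and 13.8 in the MUT libraries and 8.26, 3.44 and 12 in the REG libraries. Its log2 difference was -0.03 in MUT vs WT (limma adjusted p = 0.967). Mirg, a host transcript of microRNAs farther along, was 233, 364 and 335 in the WT libraries, 12.9, 12.6 and 6.55 in the MUT libraries and 8.44, 13.1 and 409 in the REG libraries. It was lower in MUT than in WT (log2 -4.85, limma adjusted p = 0.0123), and REG replicates 1 and 2 lay with MUT while replicate 3 lay above WT. Dio3, which encodes the enzyme that inactivates thyroid hormone, was 4.33, 44.6 and 0.866 in REG and from 1.01 to 1.56 in WT, a difference not called (log2 1.92, limma adjusted p = 0.560).

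Cdkn1c encodes p57, an inhibitor of cyclin-dependent kinases that stops cells from dividing. The gene is at chr7:143458339-143461050 on the - strand (ENSMUSG00000037664.13, 2.04 kb of exon), and 30.7% of its exon bases overlap Gm44732 on the other strand. No source used here says that counting used strand, so reads of such overlapping genes cannot be told apart. Cdkn1c was 8.45, 10.5 and 10.1 in the WT libraries, 1.16, 0.653 and 1.56 in the MUT libraries and 1.01, 0.294 and 8.07 in the REG libraries. REG replicates 1 and 2 were within or below the MUT range and replicate 3 was just under WT. The gene was 6.94-fold lower in MUT than in WT (log2 -2.79 ± 0.77 SE, limma adjusted p = 0.0203). It was not called in REG vs MUT (0.45 ± 0.77, limma adjusted p = 0.678), nor in REG vs WT (-2.34 ± 0.77, limma adjusted p = 0.4996).

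Without REG replicate 3, Cdkn1c was called lower in REG than in WT (log2 -3.39, limma adjusted p = 0.0117). It was the 1 member called in that setting, in which 5.48% of all genes tested were called, 4.07% lower and 1.41% higher. With REG replicate 3 alone the difference from WT was -0.25 and the difference from MUT was 2.55, with no test of its own, since the spread of the lone library would be assumed from the other groups. The call in MUT vs WT was lost without WT replicate 1 (-2.89), 2 (-2.74) or 3 (-2.76) and without MUT replicate 1 (-2.83) or 2 (-2.54), with limma adjusted p-values of 0.052, 0.0693, 0.064, 0.0558 and 0.0594. Estimated reads on Cdkn1c in MUT were 6 to 73, and 37.7% to 70.2% of them are expected background. After background subtraction the difference between MUT and WT was -2.42 (limma adjusted p = 0.101), and with total-read scaling it was -1.77 (limma adjusted p = 0.0948).

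Grb10 encodes an adaptor that binds the insulin and IGF1 receptors and damps their signal. It covers chr11:11930508-12038683 on the - strand (ENSMUSG00000020176.17, 9.09 kb of exon). Its values were 32.1, 56.1 and 50.7 in the WT libraries, 7.00, 16.1 and 4.22 in the MUT libraries and 45.6, 33.7 and 38.9 in the REG libraries. Every MUT library was below the rest, and the REG values fell inside the WT range. Grb10 was 5.52-fold lower in MUT than in WT (log2 -2.47 ± 0.48 SE, limma adjusted p = 0.00524) and rose 4.80-fold in REG over MUT (2.26 ± 0.48, limma adjusted p = 0.00684). The REG vs WT difference was -0.20 (limma adjusted p = 0.9). With background subtracted, at 10.8% to 61.5% of MUT reads, the decrease was -1.76 and was no longer called (limma adjusted p = 0.058), whereas the rise in REG vs MUT was (1.91, limma adjusted p = 0.045). Ddc, the imprinted neighbour of Grb10, which encodes an enzyme of dopamine and serotonin synthesis, went the other way: 0.883, 0.822 and 0.596 in the WT libraries, 2.83, 2.47 and 3.31 in the MUT libraries and 0.153, 0.460 and 0.536 in the REG libraries. It was higher in MUT than in WT (log2 1.51, limma adjusted p = 0.00966) and lower in REG than in MUT (-2.14, limma adjusted p = 0.00258). Background was 35.8% to 53.0% of the Ddc reads in MUT and 14.9% to 27.2% in WT.

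Dlk1 encodes a paternally expressed membrane protein related to Notch ligands that holds back the differentiation of fat cell precursors. It occupies chr12:109452823-109463336 on the + strand (ENSMUSG00000040856.17, 5.66 kb of exon). Values were 0.493, 0.507 and 0.708 in the WT libraries, 4.23, 2.30 and 2.72 in the MUT libraries and 1.38, 2.17 and 0.419 in the REG libraries. MUT lay above both other groups, and REG replicates 1 and 2 lay above WT while replicate 3 lay below it. Dlk1 was 3.60-fold higher in MUT than in WT (log2 1.85 ± 0.46 SE, limma adjusted p = 0.0135). It was called neither in REG vs MUT (-1.14 ± 0.46, limma adjusted p = 0.0744) nor in REG vs WT (0.70 ± 0.46, limma adjusted p = 0.619).

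Dlk1 was near the detection limit, with 16 to 28 estimated reads in WT and 22 to 258 in MUT. Background made up 44.9% to 59.7% of its reads in MUT and 28.9% to 40.7% in WT. With background subtracted the increase was 2.44 (limma adjusted p = 0.032). Without WT replicate 2 it was 1.80 and without MUT replicate 1 it was 1.62, with limma adjusted p-values of 0.0559 and 0.0509. Leaving out REG replicate 2 made the decrease in REG vs MUT a call (-1.52, limma adjusted p = 0.0227), and total-read scaling did so too (-1.93, limma adjusted p = 0.0213). Adipocyte markers, summed over 10 genes with none at 0, took 57.2 to 70.8 RPM in WT, 158 to 318 in MUT and 107 to 244 in REG. As deposited, 6 of these 10 had a log2 difference above 0 and 4 below in MUT vs WT, with 2 called higher. Their median was 0.16, beside 0.18 for all genes tested. The part of these markers in the Dlk1 difference was not tested.

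Peg3 encodes a paternally expressed zinc finger protein that acts on maternal care, growth and cell survival. It lies at chr7:6703892-6730431 on the - strand (ENSMUSG00000002265.16, 13.3 kb of exon). Values were 26.1, 49.5 and 29.9 in the WT libraries, 5.38, 3.32 and 4.30 in the MUT libraries and 13.4, 6.79 and 28.6 in the REG libraries. MUT was below every other library, and in REG replicate 3 reached the WT range while replicates 1 and 2 did not. Peg3 was 7.39-fold lower in MUT than in WT (log2 -2.89 ± 0.51 SE, limma adjusted p = 0.00374). It rose 3.06-fold in REG over MUT (1.61 ± 0.51, limma adjusted p = 0.0329) and was not called in REG vs WT (-1.27 ± 0.51, limma adjusted p = 0.513).

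Background was 78.8% to 88.6% of the Peg3 reads in MUT, the highest low end among the members, so that little signal above background was left there. Subtraction of it gave -3.80 in MUT vs WT (limma adjusted p = 0.00196) and 2.86 in REG vs MUT (limma adjusted p = 0.00825). The rise as deposited was not called without WT replicate 3, MUT replicate 1, 2 or 3, or REG replicate 1 or 3, where it was 1.61, 1.77, 1.45, 1.62, 1.64 and 1.10. With total-read scaling it was 0.78 (limma adjusted p = 0.276) and with quantile scaling 1.05 (limma adjusted p = 0.191), and neither was called. Usp29, which starts 0.147 kb from Peg3 on the other strand and shares its control region, was 2.15, 1.44 and 1.6 in the WT libraries, 7.87, 5.38 and 5.03 in the MUT libraries and 2.26, 1.24 and 0.601 in the REG libraries. It was higher in MUT than in WT (log2 1.61, limma adjusted p = 0.0162) and lower in REG than in MUT (-1.99, limma adjusted p = 0.00671). Background was 65.3% to 103% of the Usp29 reads in MUT, 28.5% to 40.1% in WT and 18.6% to 58.5% in REG.

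Plagl1 encodes a zinc finger transcription factor, also known as Zac1, that acts on a network of imprinted genes including several members. It extends over chr10:13060504-13131694 on the + strand (ENSMUSG00000019817.18, 7.82 kb of exon). Values were 13.7, 17.6 and 13.7 in the WT libraries, 6.67, 10.1 and 4.90 in the MUT libraries and 10.05, 13.1 and 9.94 in the REG libraries. MUT and REG libraries all lay below WT, and REG overlapped MUT. Plagl1 was 2.10-fold lower in MUT than in WT (log2 -1.07 ± 0.36 SE, limma adjusted p = 0.0417), the smallest called change of a member as deposited. It was not called in REG vs MUT (0.63, limma adjusted p = 0.194), where trimmed-mean scaling made it a call (1.33, limma adjusted p = 0.0276), or in REG vs WT (-0.44, limma adjusted p = 0.690). The call in MUT vs WT was lost under 12 of 24 alternatives, among them the omission of any WT library, MUT replicate 1 or MUT replicate 3 (-1.13, -0.95, -1.13, -1.04 and -0.83). The difference was 0.13 with total-read scaling and -0.18 with background subtracted.

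Mest, Ndn and Gnas were called in no comparison. Mest, a paternally expressed gene for an enzyme-like protein linked to fat tissue growth, is at chr6:30723547-30748465 on the + strand (ENSMUSG00000051855.15, 3.94 kb of exon), with 23.1% of its exon bases over Copg2 on the other strand. It was 5.08, 4.92 and 6.27 in the WT libraries, 1.12, 6.04 and 1.26 in the MUT libraries and 0.923, 4.44 and 2.87 in the REG libraries. MUT replicate 2 lay with WT and the other MUT libraries far below, and all REG libraries were below WT. The log2 difference was -1.21 in MUT vs WT (limma adjusted p = 0.162), 0.12 in REG vs MUT (limma adjusted p = 0.898) and -1.08 in REG vs WT (limma adjusted p = 0.584). Without MUT replicate 2, which had the lowest background of its group, Mest was called lower in MUT (-1.89, limma adjusted p = 0.0276), and background was 90.6% and 119% of its reads in the remaining MUT libraries.

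Ndn, a paternally expressed single-exon gene for a MAGE family protein of neurons and fat cell precursors, is at chr7:62346569-62350262 on the + strand (ENSMUSG00000033585.5, 3.69 kb of exon). It was 1.87, 2.53 and 2.19 in the WT libraries, 1.16, 1.70 and 1.39 in the MUT libraries and 1.5, 0.114 and 1.92 in the REG libraries. REG replicate 2 stood far below all other libraries, on 9 estimated reads. The log2 difference was -0.53 in MUT vs WT (limma adjusted p = 0.471), -0.48 in REG vs MUT (limma adjusted p = 0.525) and -1.0 in REG vs WT (limma adjusted p = 0.567). Background was 44.1% to 108% of the Ndn reads in MUT, so that a signal above background was hardly measurable there.

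Gnas, whose main product is the stimulatory G protein alpha subunit, is at chr2:174284320-174346744 on the + strand (ENSMUSG00000027523.19, 11.2 kb of exon), and its exons overlap Nespas (8.83%) and Gm20721 (13.1%) on the other strand. The gene also makes imprinted transcripts from upstream promoters, which a value per gene does not separate. Gnas was 61.3, 78.4 and 73.7 in the WT libraries, 16.4, 77.3 and 23.1 in the MUT libraries and 79.3, 85.4 and 82.5 in the REG libraries. All REG libraries were above all WT libraries by a small margin (log2 0.22 ± 0.52 SE, limma adjusted p = 0.901), and MUT replicate 2 was inside the WT range. The difference was -1.19 in MUT vs WT (limma adjusted p = 0.1) and 1.40 in REG vs MUT (limma adjusted p = 0.057), called with trimmed-mean scaling (2.13, limma adjusted p = 0.016). Without MUT replicate 2 both were called (-1.84 with limma adjusted p = 0.00588 and 2.06 with 0.00394), and with background subtracted MUT vs WT was 0.11. In the authors' deposited table Gnas had an FDR of 0.0413 in REG over MUT, and 5 members were under 0.05 there beside 41.5% of the table's genes. For WT over MUT it listed 6 members, all called ones but Plagl1 (FDR 0.0813), beside 25.5% of genes.

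**Figure D3:**
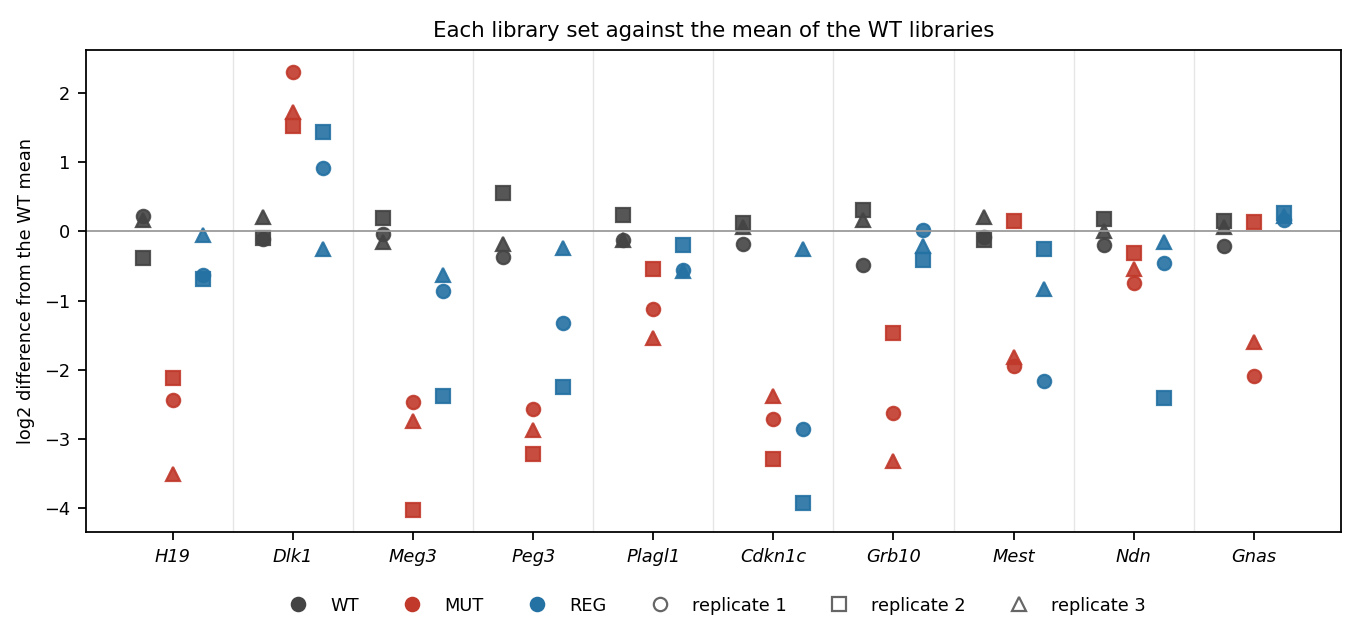
Log2 difference of each library from the mean of the WT libraries, by member, with colour for the group and symbol for the replicate. In Cdkn1c, Peg3 and Dlk1 the REG replicates 1 and 2 lie away from WT and replicate 3 lies within 0.25 of the WT mean, while Grb10 and Gnas keep the REG libraries close to WT.

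The REG libraries differed among themselves in these genes. The deposited names of REG replicates 1 and 2 have another form than that of replicate 3, and end in numbers that the names of WT replicates 2 and 3 also end in. The labels do not explain this, and its part in the difference was not tested. The members' median log2 difference from the WT mean was -0.59 and -0.56 in REG replicates 1 and 2 and -0.24 in replicate 3, where all genes tested had -0.26, -0.33 and -0.07. Below all WT libraries lay 7, 7 and 5 members, beside 50.01%, 53.4% and 31.7% of the genes tested, and above all WT libraries lay 2, 2 and 1, beside 27.3%, 29.4% and 22.5%. In MUT the medians were -2.26, -1.01 and -2.10, with 9, 7 and 9 members below all WT libraries and 37.4%, 38.5% and 38.1% of genes tested. Members shared these differences between libraries to unequal degrees. Over the 9 libraries Pearson's r of log2 values was 0.96 for Meg3 and Peg3, 0.80 once group means were removed. For Peg3 and Cdkn1c it was 0.88 and 0.89, and for Dlk1 and Cdkn1c -0.85 and -0.81. H19 and Grb10 had 0.94 over all libraries and 0.56 within groups. Grb10 and Gnas had 0.88 and 0.78, whereas Meg3 and Mest had 0.19 and -0.81. These coefficients describe 9 libraries that share group, depth and background.

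For the 3 members of highest median value, the genes with the most similar profile over the 9 libraries were found among all genes tested. Meg3 was closest to Igdcc4 (r = 0.998), Nt5m (0.995) and Wnt5b (0.990). Grb10 was closest to Sec16a (0.995), Ifitm2 (0.993) and Islr (0.992). Gnas was closest to Mark3 (0.984), Cog5 (0.977) and Lrpap1 (0.975). Sec16a was 38.7, 57.2 and 50.8 in the WT libraries, 11.7, 20.4 and 7.80 in the MUT libraries and 43.0, 41.0 and 47.8 in the REG libraries. Islr was 20.6, 33.3 and 28.7 in the WT libraries, 2.36, 5.78 and 1.48 in the MUT libraries and 20.96, 15.8 and 20.4 in the REG libraries. Each r is among the highest of a search over 29107 genes in 9 libraries, and includes the differences between groups.

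**Figure D4:**
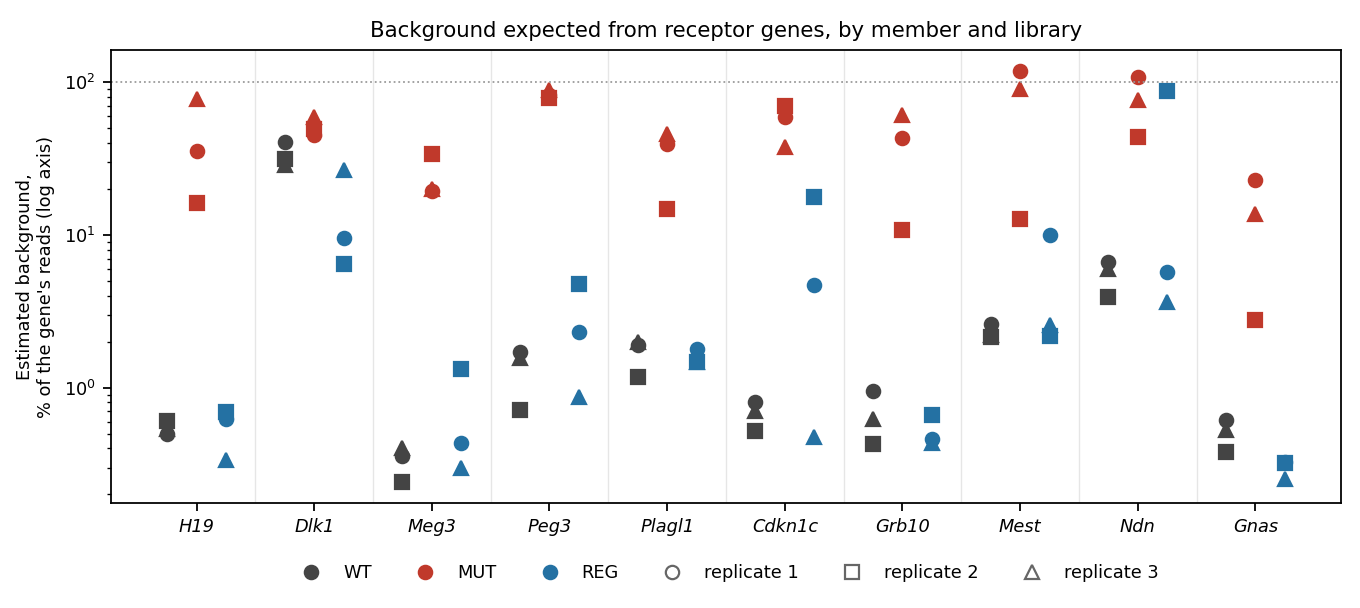
Estimated background as a percentage of each member's reads (log axis), from receptor gene density times exon length, in the 9 libraries; the dotted line is 100%. In MUT 12 of the 30 values exceed 50%, in REG 1 of 30 and in WT 0 of 30.

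The other imprinted genes were called in both directions. Of 45 listed, 44 were tested. In MUT vs WT 7 were higher and 6 lower, beside 20.5% and 14.6% of all genes tested, with a median log2 difference of 0.13. The split followed the scaling: 17 higher and 1 lower with total-read scaling, 2 and 7 with trimmed-mean scaling, and 7 and 2 with quantile scaling. The higher ones were Rtl1, Usp29, Zfp264, Nespas, Kcnk9, Zdbf2 and Ddc, and the lower ones Igf2r, Airn, Mirg, Ube3a, Nnat and Zrsr1. In REG vs MUT 3 rose (Igf2r, Airn and Zrsr1) and 9 fell (Rtl1, Usp29, Zim1, Zfp264, Asb4, Rasgrf1, Kcnk9, Zdbf2 and Ddc), with a median of -0.20, beside 11.8% and 24.8% of all genes tested. That split was 8 and 4 with trimmed-mean scaling, and 0 and 15 with total-read scaling. Limma called 0 of 44 in REG vs WT, with 6 at an unadjusted p under 0.05. Background was 56.5% to 98.1% of the Zfp264 reads in MUT, 86.6% to 93.8% of the Asb4 reads and 31.1% to 103% of the Nespas reads. In WT it was 80.5% to 233% for Zfp264 and 54.5% to 298% for Nespas. Zfp264 and Nespas reached the filter value of 0.367 in every MUT library and in no WT library. They passed the filter only through MUT, so their counts as higher in MUT carry little weight, as does the fall of Zfp264 in REG vs MUT. After background subtraction 3 genes were higher and 0 lower in MUT vs WT, and with MUT replicate 2 alone 0 were higher and 2 lower.

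Nnat, a paternally expressed gene for a membrane proteolipid, was 34.2, 34.8 and 28.6 in the WT libraries, 8.63, 7.22 and 6.71 in the MUT libraries and 7.68, 10.7 and 27.0 in the REG libraries. It was lower in MUT than in WT (log2 -2.06, limma adjusted p = 0.00825) and not called in REG vs MUT or REG vs WT. Again REG replicates 1 and 2 lay with MUT and replicate 3 near WT. Kcnk9, a potassium channel gene, was 8.23, 3.41 and 6.94 in MUT, 1.86 to 2.54 in WT and 0.329 to 1.01 in REG. It was higher in MUT than in WT (log2 1.29, limma adjusted p = 0.0401) and fell in REG vs MUT (-2.51, limma adjusted p = 0.00321), with background at 50.1% to 70.9% of its reads in MUT and 15.5% to 23.3% in WT. Rasgrf1, which encodes an activator of Ras proteins, was 1.94, 1.22 and 15.4 in REG, 11.4 to 24.8 in WT and 10.5 to 36.8 in MUT, and fell in REG vs MUT (-2.45, limma adjusted p = 0.0388).

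Fetal growth genes outside imprinting, a list of 20, gave 3 higher and 3 lower in MUT vs WT, 3 higher and 5 lower in REG vs MUT, and 0 in REG vs WT by limma, where 2 had an unadjusted p under 0.05. Of all genes tested, 20.5% were higher and 14.6% lower in MUT vs WT and 11.8% and 24.8% in REG vs MUT. Afp, counted higher in MUT vs WT and lower in REG vs MUT, passed the filter only through MUT. It reached 0.367 in every MUT library and in no WT library, with background at 82.2% to 166% of its MUT reads. For this list trimmed-mean scaling gave 0 higher and 3 lower in MUT vs WT and 5 and 1 in REG vs MUT, and total-read scaling gave 7 and 1, and 1 and 9. Set against WT, 16 of the 20 had a log2 difference below 0 in REG, and the median was -0.29 beside -0.18 for all genes tested. Igf2bp2 and Igf2bp3, which encode fetal RNA-binding proteins that act on Igf2 mRNA, had the smallest p-values there. Igf2bp2 was 2.77, 3.37 and 3.03 in the WT libraries, 4.42, 2.83 and 5.29 in the MUT libraries and 0.570, 1.00 and 0.943 in the REG libraries, with every REG library below all others. Its log2 difference was -1.52 in REG vs WT (limma adjusted p = 0.492), and it fell in REG vs MUT (-1.89, limma adjusted p = 0.00419). Lin28b, a repressor of let-7 microRNAs, fell in REG vs MUT (-1.53, limma adjusted p = 0.0281) and differed by -0.22 from WT. Background was 39.2% to 55.8% of the Lin28b reads in MUT and 7.40% to 21.6% in REG. For Igf2bp2 it was 39.9% to 56.2% in MUT and 15.02% to 30.55% in REG. The part of background in these falls was not tested. Dnmt3b, a DNA methyltransferase gene, was lower in MUT than in WT (log2 -1.46, limma adjusted p = 0.0313) and differed by -0.92 in REG vs WT (limma adjusted p = 0.539).

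Ptn, which encodes the growth factor pleiotrophin, had the largest change of that list as deposited. It was 36.3, 63.5 and 60.4 in the WT libraries, 3.83, 8.07 and 4.41 in the MUT libraries and 50.3, 65.6 and 33.7 in the REG libraries, so MUT lay apart and REG lay about the WT range. Ptn was lower in MUT than in WT (log2 -3.24, limma adjusted p = 0.00135) and rose in REG over MUT (3.13, limma adjusted p = 0.00158). Uhrf1, which maintains DNA methylation through cell division, followed the same order (-2.05 with limma adjusted p = 0.0165 and 1.74 with 0.0286).

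The partners were 24 genes that the members act with, such as receptors and kinases. Of these, 12 were lower and 0 higher in MUT vs WT, 8 rose and 0 fell in REG vs MUT, and 0 were called in REG vs WT by limma, with 3 at an unadjusted p under 0.05. Of all genes tested, 14.6% were lower in the first comparison and 11.8% higher in the second. The partners were 3 lower and 1 higher in MUT vs WT with total-read scaling and 5 lower with quantile scaling, and 1 and 3 rose in REG vs MUT. Pth1r, the parathyroid hormone receptor that signals through the Gnas product, was 113, 144 and 137 in the WT libraries, 11.9, 8.41 and 4.08 in the MUT libraries and 42.9, 59.6 and 82.2 in the REG libraries. All 3 groups were apart. It was lower in MUT than in WT (log2 -4.07, limma adjusted p = 0.000864) and rose in REG over MUT (2.94, limma adjusted p = 0.0021). Replicates 1, 2 and 3 of MUT had osteoblast marker sums of 14420, 48970 and 8125 RPM over 10 genes, none at 0. These sums ranged from 54440 to 84650 RPM for WT and from 32980 to 75330 for REG. As deposited, limma called 8 of the 10 markers lower and 0 higher in MUT vs WT. For REG vs MUT it called 6 higher and 0 lower. The part of osteoblast content in the Pth1r difference was not tested. Ccnd2, a cyclin whose kinase partner is held back by inhibitors such as p57, was lower in MUT (-2.48, limma adjusted p = 0.00354) and rose in REG over MUT (1.33, limma adjusted p = 0.0367). Notch2, a receptor of the Notch pathway, did likewise (-2.44 with limma adjusted p = 0.00286 and 1.65 with 0.0121). Gnai2, a G protein alpha subunit that inhibits cyclic AMP synthesis, was lower in MUT (-1.74, limma adjusted p = 0.00473) and rose in REG over MUT (1.82, limma adjusted p = 0.00392). Trim28, a corepressor that keeps imprints methylated, followed with -2.21 (limma adjusted p = 0.00448) and 1.94 (limma adjusted p = 0.0069). Igf1, the growth factor whose receptor Grb10 binds, differed by -1.57 in REG vs WT (limma adjusted p = 0.499). After background subtraction 3 partners were lower in MUT vs WT, and with MUT replicate 2 alone 4 were lower and 1 higher.

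The 15 cell cycle genes had log2 differences from 0.01 to 2.07 in REG vs WT. Limma called 0 of 15 in MUT vs WT (1 at an unadjusted p under 0.05) and 0 in REG vs WT (7 at an unadjusted p under 0.05). Of the 29107 genes tested, 13415 and 2755 were at an unadjusted p under 0.05 in these comparisons. In MUT vs WT 7 of the 15 were higher with total-read scaling and 2 with quantile scaling, where 10642 and 2557 of all genes tested were higher. The median log2 difference of the list was 1.25 with total-read scaling and 0.10 as deposited, beside 1.08 and 0.18 for all genes tested. Rrm2 and Ccne1, which act in nucleotide supply and entry into DNA replication, differed in MUT vs WT as deposited by 1.17 (limma adjusted p = 0.0674) and 0.41 (limma adjusted p = 0.444). Pcna went the other way there (-0.90, limma adjusted p = 0.1355). All 15 had a log2 difference above 0 in REG vs WT, with a median of 0.86, and for 7 every REG library lay above every WT library, which held for 4.03% of all genes tested. Birc5, a gene of mitosis, was 5.04, 2.22 and 3.00 in the WT libraries, 2.41, 2.00 and 3.08 in the MUT libraries and 19.9, 17.3 and 9.29 in the REG libraries. REG lay above both other groups, by log2 2.07 over WT (limma adjusted p = 0.466) and 2.42 over MUT (limma adjusted p = 0.00335). Mcm5, a subunit of the replication helicase, was 8.5, 5.06 and 5.32 in WT and 14.6, 13.4 and 20.9 in REG (1.33, limma adjusted p = 0.498), and it rose in REG over MUT (1.59, limma adjusted p = 0.0106). Mcm3, another subunit of that helicase, differed by 2.00 in REG vs WT (limma adjusted p = 0.498). Pcna and Cdk1 rose in REG over MUT as well, so that 4 of 15 rose there, beside 11.8% of all genes tested. With trimmed-mean scaling 8 rose, and with total-read scaling 1 rose and 1 fell. Of the 29107 genes tested, 6244 rose with trimmed-mean scaling, and 942 rose and 10440 fell with total-read scaling. Blood and marrow markers, which include dividing cells, took 3070 to 10500 RPM in REG and 724 to 2104 in WT, with none of 10 at 0, and their part in the cell cycle values was not tested.

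**Figure D5:**
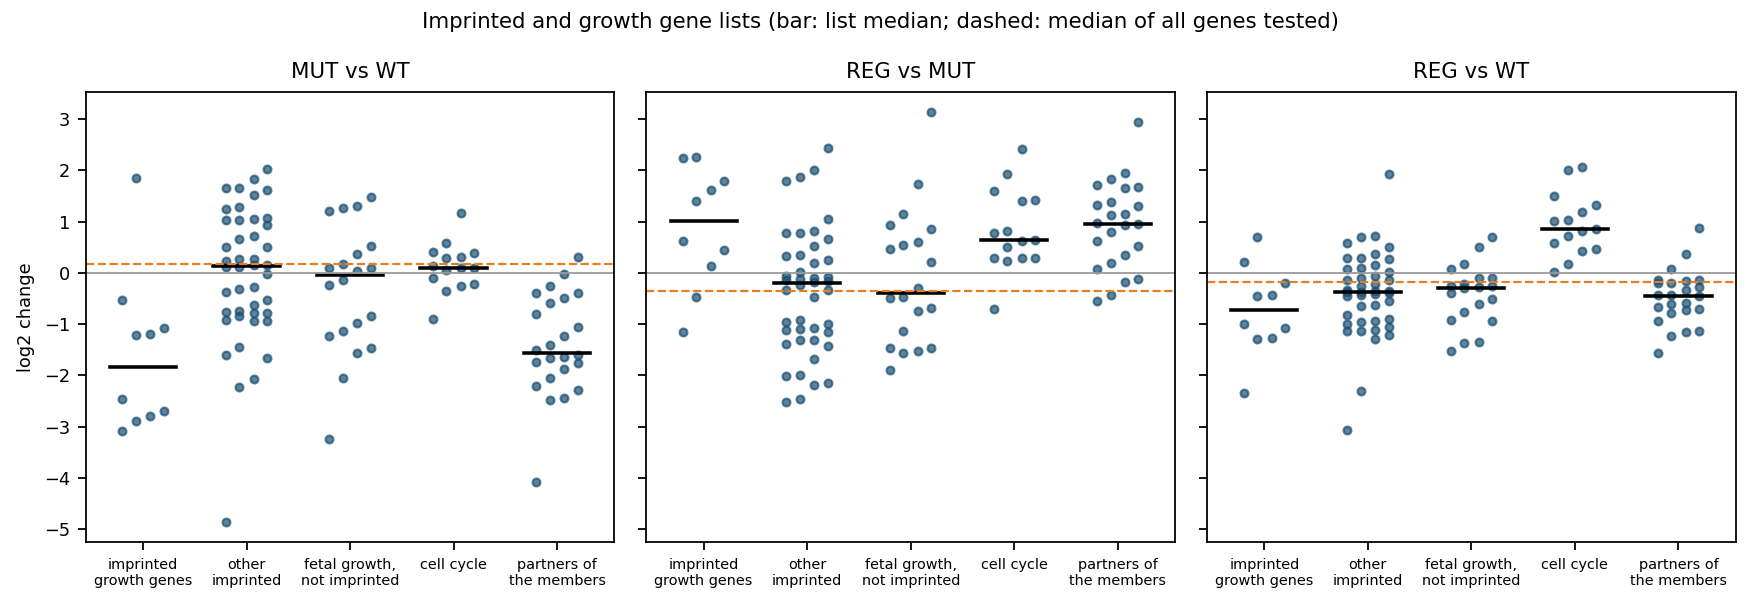
Log2 changes of the 10 imprinted growth genes, 44 other imprinted genes, 20 fetal growth genes outside imprinting, 15 cell cycle genes and 24 partners in the 3 comparisons, with a bar at each list's median and a dashed line at the median of all genes tested. In REG vs WT the members' median is -0.73 and that of the cell cycle genes is 0.86.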

How the data were processed

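Total RNA of 9 coronal suture libraries was sequenced with single-end reads of 75 cycles, with RNA integrity numbers above 9 per the labels' protocols. The submitters' processing notes name STAR 2.6.1d, Partek and the build mm10. How reads were counted, normalized and tested, and on which annotation, is not given in the sources used here. Per the labels, the extraction protocol mentions 3 pairs of samples and the series design 1 week after induction; the sample labels account for neither, and age and groups follow those labels.

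In the deposited matrix the authors give a signal per gene and library. From the values, it holds gene counts scaled to a common upper quartile (2.76 in each library). A deposited gene table holds p-values, FDR and log2 ratios of the authors and further statistics per gene, and matrix columns were named by its order after 4 of them matched for all 43644 genes (relative tolerance 1e-06). To estimate reads, each value was divided by the lowest of its library and 1 was taken off; 41.7% to 77.4% of low values came out whole within 0.1, so no count test was used.

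One fit of all 9 libraries was made with limma 3.58.1 in R 4.3.3 on log2(value + 0.367), for the 29107 genes that reached 0.367 in 3 libraries or more. The number 0.367 is the median column sum over 1000000. Tests are two-sided with Benjamini-Hochberg adjustment over all genes tested, called at an adjusted p under 0.05. Fold changes are on the log2(value + 0.367) scale, which understates those of low genes. An exact permutation test of 3 against 3 cannot go below 0.1 and was not used. The fit was tested on simulated data.

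Background per library was estimated from 1597 olfactory and vomeronasal receptor genes as reads per kb of exon, times each gene's exon length. Positions and exon lengths come from GENCODE M21 (GRCm38), where 42973 symbols (98.5%) were found. The alternatives were 4 other scalings or subtractions, other filters, pseudocounts and variance models, a replicate block, each library left out, and REG replicates 1 and 2, REG replicate 3 or MUT replicate 2 alone.

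Members, gene lists and alternatives were chosen with earlier results of these data known. Named are all 10 members and, of each other list, the 3 genes of smallest p in each comparison. Igf2, Rian, Mirg, Dio3, Usp29, Afp and Cdk1, and the further called imprinted genes, were named after their values were seen. Likeness was searched for the 3 members of highest median value, with the 3 genes of highest r for each. Python 3.11.15, pandas 2.3.3, numpy 2.4.6 and matplotlib 3.10.9 made the tables and figures.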

Additional observations from a re-analysis of the deposited data

How the results depend on the processing

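Of the members' values under the alternatives, 620 kept direction and side of the threshold, 52 lost a call, 15 gained one and 27 changed sign. H19 and Peg3 stayed lower in MUT than in WT under all 24 alternatives.

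Members called in MUT vs WT numbered 7 as deposited, 3 after background subtraction and 3 with MUT replicate 2 alone, and 4 to 8 with a library left out. Where MUT replicate 2 or REG replicate 3 stands alone, the lone library is assumed to vary like those of the other groups. In REG vs MUT they numbered 4 as deposited and 2 with quantile scaling, background subtraction, only the 2 groups compared, or REG replicates 1 and 2 only. With MUT replicate 2 alone 1 was called, and with a library left out 2 to 5. Against WT, REG gave 0, and 1 with REG replicates 1 and 2 only, so that leaving out a library gave 0 to 1.

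All genes called in MUT vs WT were 10225 as deposited, 5046 with quantile scaling, 4088 after background subtraction, 4895 with the 10 times stricter filter, 17589 with array quality weights and 4065 with MUT replicate 2 alone. Leaving out a library gave 4511 to 12756, the lowest without WT replicate 2. In REG vs MUT they were 10653 as deposited, 4204 with quantile scaling, 3822 after background subtraction, 3652 with the stricter filter, 5689 with only the 2 groups compared and 4264 with MUT replicate 2 alone, and 7540 to 11706 with a library left out. For REG vs WT 0 became 1596 with REG replicates 1 and 2 only, the 1 library whose omission did so, and the range was 0 to 1596. The cause of these shifts was not tested.

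Changes of sign in MUT vs WT were 0.13 for Plagl1, 0.50 for Ndn and 0.05 for Gnas with total-read scaling, 0.11 for Gnas after background subtraction, and 0.15 for Mest and 0.13 for Gnas with MUT replicate 2 alone. In REG vs MUT total-read scaling gave -0.22 for Plagl1, -0.25 for Cdkn1c and -0.61 for Mest, and quantile scaling gave -0.06 for Plagl1 and 0.23 for Ndn. Ndn was 0.27 after background subtraction and 0.37 with REG replicate 3 alone. With REG replicates 1 and 2 only Cdkn1c was -0.59 and Mest -0.0027, and with MUT replicate 2 alone Mest was -1.24. With a library left out, Cdkn1c ran from -0.59 to 1.24, Mest from -0.29 to 0.80 and Ndn from -0.90 to 0.23. REG against WT gave a Dlk1 value of -0.25 with REG replicate 3 alone, Plagl1 0.0012 and Grb10 0.24 with trimmed-mean scaling, and Grb10 0.15 with total-read scaling and with background subtraction.

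Libraries of the same replicate number did not stand out as alike. Over 9 same-numbered pairs the correlation of deviations from group means ran from -0.196 to 0.101, and over differently numbered pairs from -0.218 to 0.379. Deviations within a group of 3 sum to 0, so these values cannot show whether libraries were paired, and pairing in another order was not tested. With the number as a replicate block 6, 3 and 0 members and 8766, 9373 and 0 genes were called in MUT vs WT, in REG vs MUT and in REG against WT, and the calls of Plagl1 in MUT vs WT and Peg3 in REG vs MUT were lost.

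Depth and background limit the MUT values: Cdkn1c there rests on as few as 6 estimated reads, and background reached 119% of a member's reads. Reads were estimated from scaled values, so no counting intervals are given. Groups of 3 libraries allow no exact test under 0.1.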
